A study of Mus musculus with 2 samples.

Results

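Cluster 15 of the deposited single-cell data is a small group of esophageal keratinocytes rich in transcripts of cell division. Its members are the cells that the authors' deposited annotation numbers 15, all typed there as epithelial cells. There are 82 of them among 4853 cells. The control library holds 75 of its 2472 cells in cluster 15, and the Keap1 cKO library 7 of its 2381. Cells came from esophagi of mice that were hybrids of C57BL/6J and BALB/c, after the muscle layer had been stripped off, and were profiled with droplet 3′ RNA sequencing, in which each captured transcript is counted once by its unique molecular identifier (UMI). The control genotype was Keap1 floxB/floxB. The other genotype was Keap1 floxB/floxB with K5CreERT2, a tamoxifen-inducible Cre recombinase driven by the keratin 5 promoter, so both libraries carry the floxB alleles of Keap1. The sources used here do not state the age of the mice, how many mice went into a library, or when Cre was induced. The question taken up here is how the 75 control cells of cluster 15 differ from the 313 control cells of cluster 4, a cluster of basal keratinocytes. The 7 Keap1 cKO cells are given as values only, with no ratio between genotypes.

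A cell that divides first copies its DNA in S phase, with the MCM helicase, the sliding clamp PCNA and the DNA polymerases. It then builds up the proteins of G2 phase and mitosis: cyclin B with the kinase CDK1, the kinetochores that hold chromosomes to the spindle, the motors that shape the spindle, and the anaphase-promoting complex that ends mitosis by marking its substrates for destruction. In the stratified lining of the esophagus, division takes place in and next to the basal layer, whose cells carry the keratins Krt5, Krt14 and Krt15, and their progeny move up and switch to Krt4 and Krt13. Genes of G2 and mitosis are known for promoters with a CCAAT box, bound by NF-Y, and a cell cycle homology region, bound by the MuvB complexes, while genes of DNA replication are known for E2F sites.

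Each genotype is 1 library, so there are no replicates, no test was made, and cells of 1 library are not replicates of a condition. Cluster numbers were made by the authors from the same expression values. A difference between cluster 15 and cluster 4 is therefore a description of what the cluster holds. Levels are UMIs summed over the cells of a cluster per 1000000 UMIs (CPM), and each ratio has an exact 95% interval that covers counting error only. No doublets were removed here. The sums rest on 1616695 UMIs in cluster 15 and 6496387 in cluster 4. Depth was alike, with between 2514 and 40698 UMIs and a median of 20225 per cell in cluster 15, against between 1383 and 51312 and a median of 20487 in cluster 4. The median number of genes detected was 4385 and 4334. Of 5 cell barcodes found in both libraries, 0 belonged to cluster 15.

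Shown are the promoters of the 4 genes used as markers of the cluster (Cenpf, Ube2c, Top2a and Mki67). Those of the mitotic genes Cdc20 and Cdk1 and of the replication gene Mcm6 follow. Between them they carry the 3 kinds of site named above, but not every promoter holds all 3. The mitosis genes were high in cluster 15 and Mcm6 was not. Each line runs 5′ to 3′ from base 150 to base 6 before the RefSeq start (GRCm38.p6), on the gene's own strand. Capitals mark TTTGAA or its reverse complement TTCAAA (cell cycle homology region), CCAAT or its reverse complement ATTGG, and TTTGGCGC, TTTCCCGC or TTTCGCGC on either strand (E2F). In Mcm6 the first run of capitals is 2 overlapping E2F matches, one on each strand.
Cenpf: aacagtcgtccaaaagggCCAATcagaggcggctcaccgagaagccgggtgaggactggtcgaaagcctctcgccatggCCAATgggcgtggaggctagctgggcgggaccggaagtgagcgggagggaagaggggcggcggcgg
Ube2c: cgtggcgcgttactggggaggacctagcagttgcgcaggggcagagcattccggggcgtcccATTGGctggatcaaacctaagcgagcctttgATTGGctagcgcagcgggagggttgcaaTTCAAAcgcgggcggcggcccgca
Top2a: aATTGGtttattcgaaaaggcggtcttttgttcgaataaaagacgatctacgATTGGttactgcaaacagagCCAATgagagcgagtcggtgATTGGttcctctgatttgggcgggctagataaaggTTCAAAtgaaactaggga
Mki67: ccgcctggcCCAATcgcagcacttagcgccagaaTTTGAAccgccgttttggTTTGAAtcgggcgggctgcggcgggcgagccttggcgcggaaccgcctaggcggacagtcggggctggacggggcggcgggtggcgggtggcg
Cdc20: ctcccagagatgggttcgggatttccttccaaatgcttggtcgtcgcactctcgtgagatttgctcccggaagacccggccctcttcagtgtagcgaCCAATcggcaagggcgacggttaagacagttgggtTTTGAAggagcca
Cdk1: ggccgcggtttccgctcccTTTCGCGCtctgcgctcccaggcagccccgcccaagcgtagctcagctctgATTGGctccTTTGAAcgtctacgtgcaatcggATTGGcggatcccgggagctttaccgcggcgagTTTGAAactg
Mcm6: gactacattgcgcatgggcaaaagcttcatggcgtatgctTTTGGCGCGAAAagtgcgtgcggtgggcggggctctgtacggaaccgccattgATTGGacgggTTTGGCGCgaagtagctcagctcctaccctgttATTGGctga

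The windows lie at chr1:189688092-189688236 on the minus strand (Cenpf), chr2:164769779-164769923 on the plus strand (Ube2c), chr11:99024195-99024339 on the minus strand (Top2a), chr7:135716385-135716529 on the minus strand (Mki67), chr4:118437349-118437493 on the minus strand (Cdc20), chr10:69352918-69353062 on the minus strand (Cdk1) and chr1:128359711-128359855 on the minus strand (Mcm6). The GENCODE annotation starts 3 of these genes further upstream, so that 26 bases of the Ube2c window, 21 of the Cdk1 window and 4 of the Cdc20 window lie in the first exon; the other windows lie wholly outside the exons of their genes. Ube2c, Top2a, Mki67, Cdc20 and Cdk1 hold TTTGAA or its complement in these windows, Cenpf and Mcm6 do not, and all 7 genes hold at least 1 CCAAT or its complement. Cenpf has a TTTGAA just after its start, past the printed stretch but inside the longer window used below. The 7 genes were picked, so they do not show how common a site is. Cdk1 holds 1 E2F match, and Mcm6 holds 3.

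Over the whole RefSeq window of 250 bases before to 50 after the start, TTTGAA was present on either strand in 51 of the 91 promoters found for the 108 genes of the mitosis lists (56.0%) and in 7 of the 38 found for the 47 genes of the replication lists (18.4%). The share over all 27025 promoters was 18.1%, and over the 8486 promoters found for the 10701 genes described here it was 11.9%. E2F matches were present in 36.8% of the replication promoters and 12.1% of the mitosis promoters, against 3.89% for the genes described here and 1.91% of all promoters. In the shorter window of 100 bases before the start these shares were 10.5%, 6.59%, 1.44% and 0.692%. CCAAT was common in both, at 70.3% of mitosis promoters and 60.5% of replication promoters against 37.9% of all. TTTGAA and CCAAT occurred together in 46.2% of mitosis promoters, 10.5% of replication promoters and 7.12% of all. Of the genes at least 8-fold higher in cluster 15 with the whole interval above 0, 65 of 114 promoters (57.0%) held TTTGAA. The membership of this set overlaps the mitosis lists. For the genes at least 2-fold lower with the whole interval below 0, a looser cutoff of fold, it was 12 of 252 (4.76%). A match is a run of letters in a window and was not tested as a binding site.

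The 4 markers were present in most or all cells of the cluster. Cenpf, which encodes a kinetochore protein of G2 and mitosis, lies at chr1:189640606-189688086 (mm10, minus strand). Its level per cell ran from 53.5 CPM through a median of 775 to 2889 CPM in cluster 15, and from 0 through a median of 0 to 1198 CPM in cluster 4. Summed, the level was 1065 CPM against 75.7 CPM, 14.1-fold higher, or 3.81 on the log2 scale (interval 3.67 to 3.96). Every cell of cluster 15 had a UMI of Cenpf, and 124 of 313 cells of cluster 4 did.

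Mki67 (chr7:135689784-135716361, minus strand), the gene of the proliferation antigen Ki-67, which coats mitotic chromosomes, was likewise seen in all 75 cells. It ran from 109 through a median of 575 to 1963 CPM per cell, and its summed level was 714 CPM against 77.3 CPM in cluster 4 (log2 3.21, interval 3.06 to 3.36). Ube2c (chr2:164769898-164778822, plus strand), the ubiquitin-conjugating enzyme of the anaphase-promoting complex, had 648 CPM against 49.9 CPM (log2 3.70, interval 3.52 to 3.88) and was seen in 74 of 75 cells. Top2a (chr11:98992943-99024189, minus strand), the topoisomerase that untangles sister chromatids, was the most uneven of the 4 across cells. It was seen in 62 of 75 cells, with a median of 2 and a maximum of 90 UMIs per cell, and summed to 410 CPM against 13.7 CPM (log2 4.90, interval 4.58 to 5.24).

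All 4 markers were present together in 61 of the 75 control cells, and 3 of the 4 in the other 14. Cluster 4 was mixed in this respect: 91 of its 313 cells had no UMI of any of the 4, and 30 had all 4. After each cell was thinned to 12700 UMIs, which left 68 cells of cluster 15 and 300 of cluster 4, the share of cells with a UMI was 98.5% against 36.7% for Cenpf, 98.5% against 39.3% for Ube2c, 75% against 13.7% for Top2a and 100% against 34.3% for Mki67. At the same depth 2.19% of the cells of fibroblast cluster 1 had Cenpf, 6.58% had Ube2c, 4.39% had Top2a and 2.19% had Mki67. Without thinning, the red blood cells of cluster 7 (median 10831 UMIs) had Ube2c in 30.3% of cells but Cenpf in 0.562%, Top2a in 1.12% and Mki67 in 2.25%. The share of cluster 4 cells with Ube2c, after thinning, did not exceed that of the 26 red blood cells deep enough to be thinned (50%, interval 29.9% to 70.1%). In keratinocyte cluster 13 the thinned Ube2c share was 8.26%. Whether the Ube2c UMIs of cluster 4 are expression or background was not tested.

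**Figure D1:**
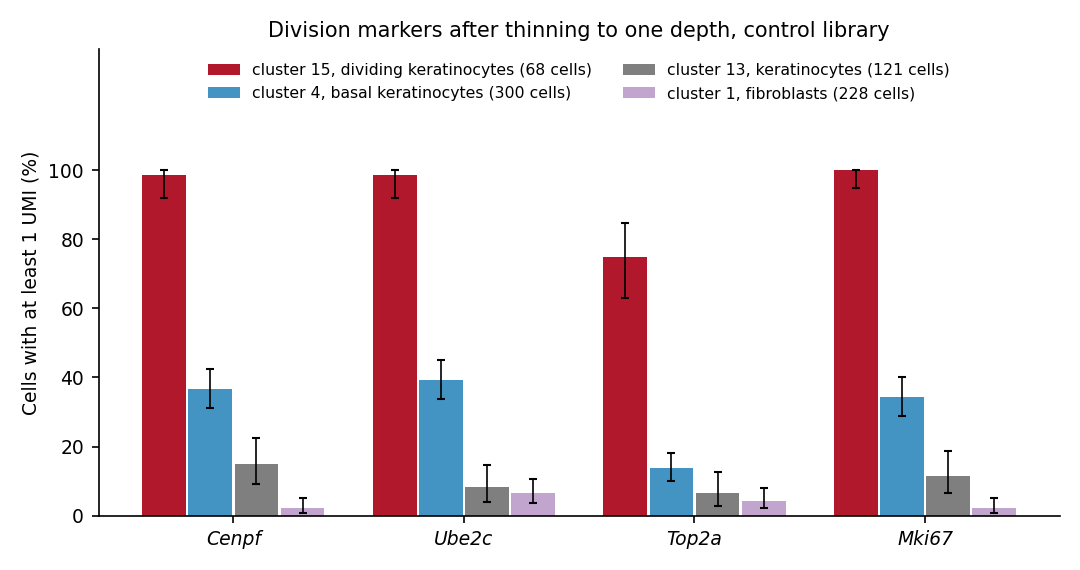
Share of control cells with at least 1 UMI of each marker (vertical axis, percent) after thinning each cell to 12700 UMIs, for cluster 15, basal cluster 4, keratinocyte cluster 13 and fibroblast cluster 1. Bars are shares with exact Clopper-Pearson 95% intervals for counting error. Top2a is the marker with the lowest share in cluster 15, 75%, and cluster 4 lies between 13.7% and 39.3% for the 4 genes.

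Over the 10701 genes with at least 20 UMIs in both clusters together, 846 (7.91%) were at least 2-fold higher in cluster 15 and 562 (5.25%) at least 2-fold lower, with a median log2 ratio of 0.04. The large differences lay on one side: 142 genes were at least 8-fold higher with the whole interval above 0, and 8 were at least 8-fold lower with the whole interval below 0. The 2 counts do not have the same reach, since cluster 15 held 1616695 UMIs and cluster 4 held 6496387. A gene low in cluster 15 needs more UMIs to pass 8-fold than a gene high in it. The 12 highest ranked genes were Depdc1a, Gas2l3, Aurka, Nek2, Plk1, Shcbp1, Sgo2a, Kif2c, Cep55, Knl1, Pimreg and Kif11. Depdc1a, which encodes a protein of mitotic cells, had 117 UMIs in 54 cells of cluster 15 and 1 UMI in cluster 4 (log2 8.88, interval 6.37 to 14.19). Gas2l3, which encodes a linker of actin and microtubules at the midbody, had 214 UMIs in 56 cells against 2 UMIs (log2 8.75, interval 6.88 to 11.80). These wide intervals reflect the 1 or 2 UMIs found in cluster 4.

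The 12 lowest ranked genes differed by less, from a log2 ratio of -2.40 for Tgm3 to -1.33 for Apex1. The ranking asked for 50 CPM in either cluster, which left out genes such as Grhl3, described below, with a lower ratio than any of these. Tgm3, a transglutaminase of the cornified layer, had 21 CPM against 111 CPM. Mt4, a metallothionein of stratified epithelia, had 85.4 CPM against 413 CPM (log2 -2.28), and Calml3, a calmodulin-like gene of differentiating epithelium, 17.3 CPM against 54.0 CPM (log2 -1.64). These 3 genes were far higher in keratinocyte cluster 13, at 980, 12638 and 749 CPM. The list also held Ccnd2, the gene of cyclin D2, Myc, the gene of a growth-promoting transcription factor, at 16.7 CPM against 58.0 CPM (log2 -1.80, interval -2.42 to -1.23), and Hk2, the gene of hexokinase, at 16.1 CPM against 50.8 CPM (log2 -1.66). The others were Chit1, Ahnak2, Il1r2, Igfbp3 and 2200002D01Rik.

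**Figure D2:**
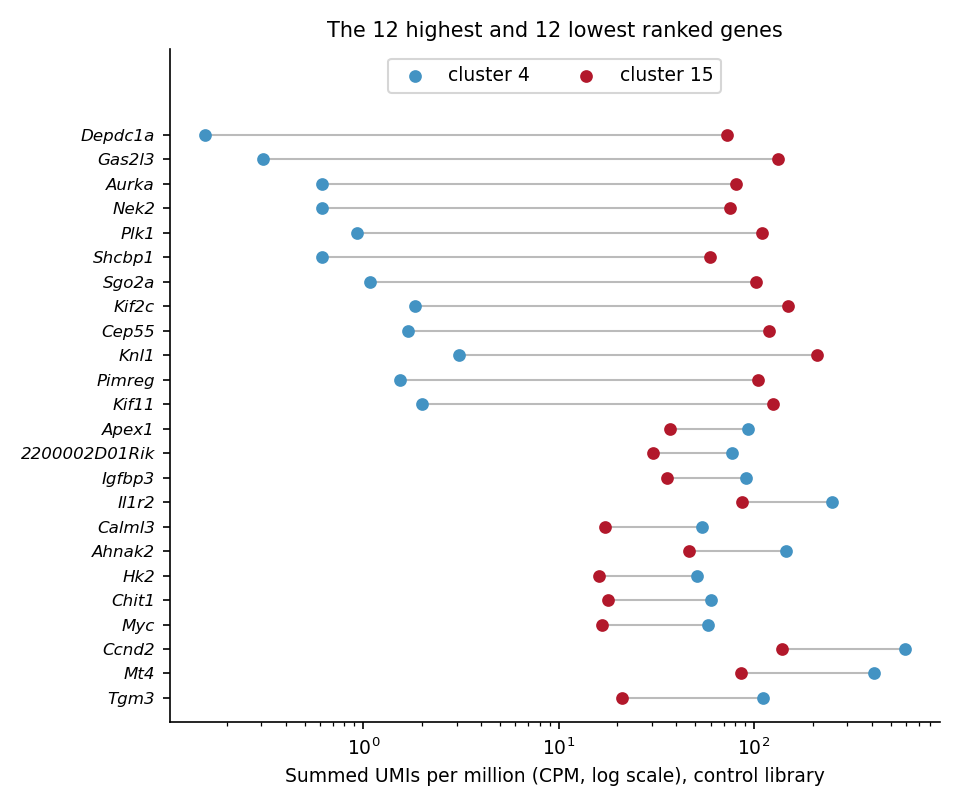
Summed level of the 12 highest and 12 lowest ranked genes in control cells of cluster 15 and cluster 4 (horizontal axis, CPM on a log scale; 1 row per gene, lines join the 2 clusters). The 12 highest genes lie at or below 3.08 CPM in cluster 4 and between 59.4 and 209.7 CPM in cluster 15.

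Genes of mitosis were higher in cluster 15 almost throughout. Counts for each list cover its members with at least 20 UMIs, and a gene near that floor passes it more easily when it is high in 1 cluster. Each list count here and below stands beside 7.91% of all genes higher and 5.25% lower. The 6 mitosis lists, which include the 4 markers of the cluster, have 108 members, 107 of them with at least 20 UMIs. Of these 107 genes, 99 were at least 2-fold higher and 0 at least 2-fold lower, with a median log2 ratio of 4.06 beside 0.04 over all genes. Their UMIs made up 21945 CPM in cluster 15 and 2762 CPM in cluster 4, a 7.95-fold difference. Among mitotic kinases and cyclins, 15 of 16 were at least 2-fold higher (median log2 4.94). Ccnb1, the gene of cyclin B1, had 357 CPM against 6.93 CPM (log2 5.69) and was seen in 71 of 75 cells against 30 of 313. Ccnb2, the gene of cyclin B2, had 432 CPM against 33.4 CPM (log2 3.69) and was seen in all 75 cells. Aurka, the gene of the Aurora kinase of the spindle poles, had 130 UMIs in 45 cells of cluster 15 and 4 UMIs in 4 cells of cluster 4 (log2 7.03, interval 5.64 to 8.93). Plk1, the gene of the polo-like kinase that drives entry into mitosis, had 177 UMIs in 48 cells against 6 UMIs in 5 cells (log2 6.89, interval 5.74 to 8.35), and Nek2, the gene of a centrosomal kinase, had 122 UMIs against 4 (log2 6.94).

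Of the centromere, kinetochore and passenger complex list, 28 of 28 members were at least 2-fold higher (median log2 3.76). Cenpa, the gene of the histone variant that marks centromeres, was seen in all 75 cells at 778 CPM against 44.2 CPM (log2 4.14). Knl1, the gene of a kinetochore scaffold, had 210 CPM against 3.08 CPM (log2 6.09). Cenpi and Ska3 had the largest ratios of the list on few UMIs, with 25 against 1 and 33 against 1. In the list of the spindle checkpoint and the anaphase-promoting complex, 13 of 16 were at least 2-fold higher (median log2 2.92). Its leading gene was Cdc20, whose protein activates the anaphase-promoting complex. Cdc20 ran from 90.8 through a median of 664 to 1989 CPM per cell in cluster 15 and had a median of 0 in cluster 4, and its summed level was 672 CPM against 17.2 CPM (log2 5.29, interval 5.0 to 5.58). Ube2s, which extends ubiquitin chains for the same complex, had 841 CPM against 115 CPM (log2 2.87), and Espl1, the gene of separase, had 38 UMIs against 4 (log2 5.25).

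The spindle list had 20 of 20 members at least 2-fold higher (median log2 4.44). Kif11, the motor that separates the spindle poles, had 126 CPM against 2.0 CPM (log2 5.97), and Kif2c, a microtubule-depolymerizing kinesin, had 150 CPM against 1.85 CPM (log2 6.34). The tubulin gene Tubb4b (1508 CPM against 222 CPM, log2 2.77) and Stmn1, the gene of a microtubule destabilizer (1553 CPM against 309 CPM, log2 2.33), were the most abundant. In the cytokinesis list 10 of 10 members were at least 2-fold higher (median log2 5.08), led by Cep55, which acts in abscission, with 192 UMIs against 11 (log2 6.13), and Anln, the gene of anillin at the cleavage furrow, with 600 UMIs against 48 (log2 5.65). In the condensin and cohesin list 13 of 17 were at least 2-fold higher (median log2 3.21). Smc4, a condensin subunit, had 471 CPM against 43.9 CPM (log2 3.43), Kif22 had 121 UMIs against 9 (log2 5.76), and Esco2, a cohesin acetyltransferase, had 21 UMIs against 1.

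Genes of DNA replication lay on both sides. Over the 40 of 47 members of the 2 replication lists with at least 20 UMIs, 8 were at least 2-fold higher and 7 at least 2-fold lower, beside 7.91% and 5.25% of all genes (median log2 -0.10). Their summed levels were 674 CPM and 563 CPM (log2 0.26, interval 0.16 to 0.36). In the licensing list 1 of 13 was higher and 3 were lower. The one above was Dbf4, the activating subunit of the CDC7 kinase, with 120 CPM against 9.39 CPM (log2 3.68, interval 3.25 to 4.12). The ones below were Cdt1 (3 UMIs against 50, log2 -2.05), Mcm3 (5 against 59, log2 -1.55) and Mcm6 (11 against 129, log2 -1.55), all parts of the licensing of origins. Mcm7, a further helicase subunit, was close to level at 24.7 CPM against 28.9 CPM. In the fork list 7 of 27 were higher and 4 lower. Pcna was lower, with 22 UMIs in 20 cells against 265 UMIs in 163 cells (log2 -1.58, interval -2.28 to -0.96). Clspn, the gene of a fork checkpoint mediator, was higher with 26 UMIs against 24 (log2 2.12), and so was the clamp loader gene Rfc5 (log2 1.73). Timeless had 1 UMI against 22, with an interval of the log2 ratio that reached 0.18.

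Nucleotide synthesis genes had 3 of 18 members higher and 1 lower (median log2 -0.05), with Tk1, the gene of thymidine kinase, at 47.6 CPM against 8.62 CPM (log2 2.47) and Rrm1, a ribonucleotide reductase subunit, at 65.6 CPM against 23.4 CPM (log2 1.49). Impdh2 and Nme1, the most abundant, had log2 ratios of -0.22 and -0.64. Of 17 regulators of G1 and S phase, 2 were higher and 6 lower, beside 7.91% and 5.25% of all genes (median log2 -0.53). Ccnd2 was seen in 63 of 75 cells of cluster 15 and 303 of 313 cells of cluster 4, with a median of 2 against 10 UMIs per cell. Its summed level was 140 CPM against 591 CPM, 4.23-fold lower (log2 -2.08, interval -2.28 to -1.89). Ccnd1, the gene of cyclin D1, had 114 CPM against 271 CPM (log2 -1.25). The cyclin E genes were near absent from cluster 15, with 1 UMI each: Ccne2 had 26 UMIs in cluster 4 (log2 -2.69, interval -8.05 to -0.09) and Ccne1 had 24 (log2 -2.58, interval -7.94 to 0.04). After thinning to one depth, 11 Ccne1 UMIs were left, none of them in cluster 15. The log2 value of 0.27 at that depth is a bound in which 3 counts stand for none, and not a measured change of sign.

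Of the inhibitors of cyclin-dependent kinases and other antiproliferative genes, 5 of 11 were at least 2-fold higher and 0 lower (median log2 0.80). Cdkn2d, the gene of p19, had 69.9 CPM against 9.85 CPM (log2 2.83, interval 2.37 to 3.29), and Cdkn2c, the gene of p18, had 29.7 CPM against 5.39 CPM (log2 2.46). Cdkn1b, the gene of p27, had 139 CPM against 64.3 CPM (log2 1.11), while Cdkn1a, the gene of p21, had 62.5 CPM against 79.4 CPM (log2 -0.35). The abundant Btg1 and Btg2 had log2 ratios of -0.13 and 0.23. The chromatin and histone list has 28 names, of which 22 were in the data and 21 had enough UMIs. Of these 21 genes, 12 were higher and 1 lower (median log2 1.12). Hmgb2, a chromatin protein abundant in dividing cells, ran from 1035 through a median of 2892 to 5283 CPM per cell and was the gene with the most UMIs of this list, 2902 CPM against 246 CPM (log2 3.56). Hmgb1 had 2782 CPM against 1102 CPM (log2 1.34), and Asf1b, the gene of a histone chaperone, 50 UMIs against 16 (log2 3.65). The gene below was Hells, a chromatin remodeler, with 8 UMIs against 106 (log2 -1.72). DNA repair and checkpoint genes, of which 12 of 20 had enough UMIs, had 7 higher and 2 lower (median log2 1.37). Pbk, the gene of a mitotic kinase on this list, had 66 UMIs against 1 (log2 8.05, interval 5.52 to 13.38), Fancd2 had 16 against 4 and Chek2 60 against 83 (log2 1.54). Nuclear envelope and transport genes had 6 of 10 higher and 0 lower (median log2 1.36), with the importin gene Kpna2 at log2 4.05 and the lamin B receptor gene Lbr at 2.37, and with the abundant Lmna and Ran at 0.93 and 0.89.

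**Figure D3:**
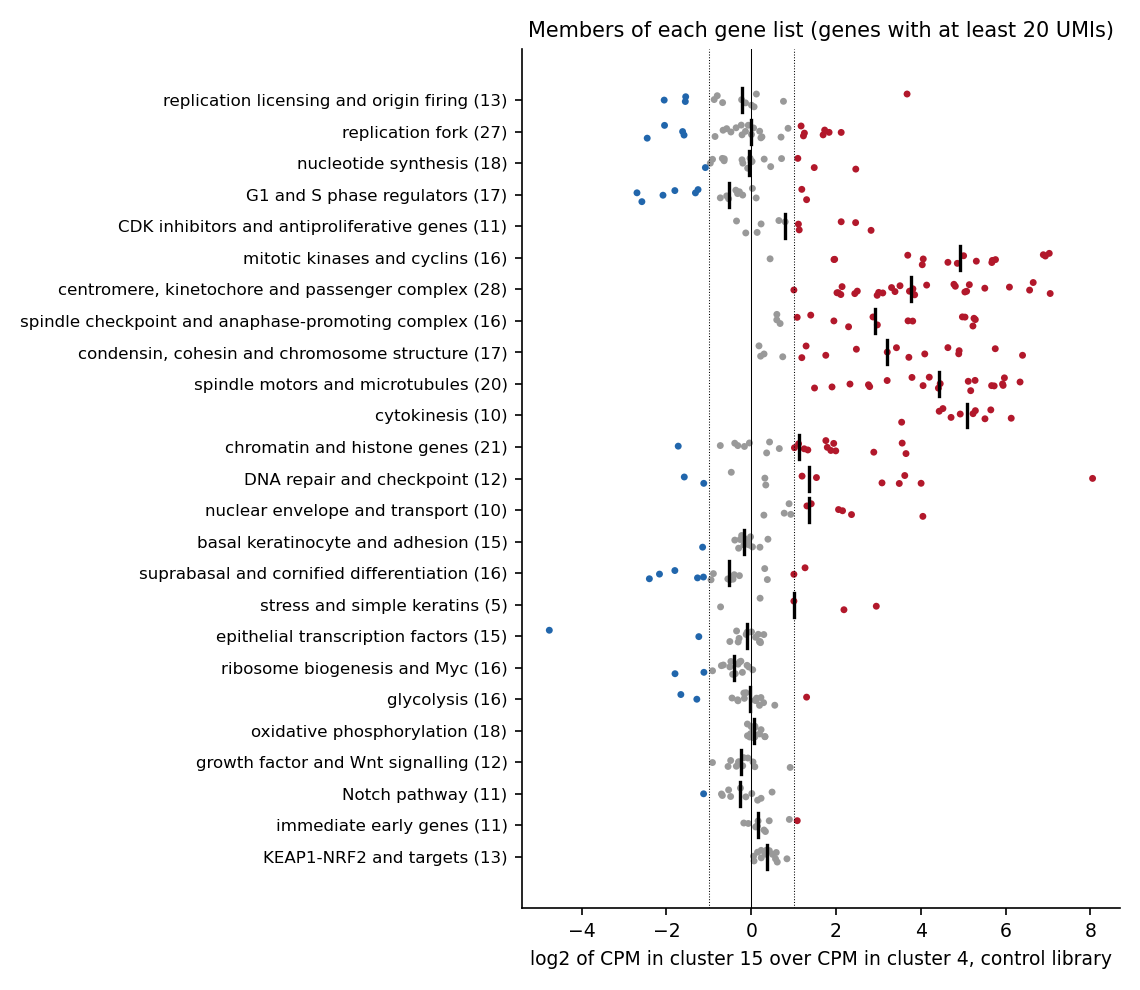
log2 ratio of the summed level in cluster 15 over cluster 4 (horizontal axis) for each member with at least 20 UMIs of 25 gene lists (vertical axis, with the number of such members); black bars are medians, dotted lines mark 2-fold, and red and blue points lie beyond it. The 6 mitosis lists have medians between 2.92 and 5.08, and the medians of the keratinocyte, metabolism and signalling lists lie between -0.53 and 1.01.

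The keratinocyte genes of cluster 15 were those of the basal layer, at levels near those of cluster 4. Of 15 basal and adhesion genes, 0 were at least 2-fold higher and 1 lower (median log2 -0.16). Krt15 (chr11:100131758-100135928, minus strand) had 6920 CPM against 7794 CPM (log2 -0.17), Krt5 (chr15:101707070-101712898, minus strand) 4184 CPM against 4689 CPM (log2 -0.16), and Krt14 (chr11:100203162-100207548, minus strand) 3472 CPM against 3595 CPM (log2 -0.05). All 3 were seen in each of the 75 cells. The Krt5 level per cell ran from 1613 to 6918 CPM, inside the range of 1526 to 9961 CPM in cluster 4. The gene below was Lama3, a laminin subunit of the basement membrane, at 22.9 CPM against 50.6 CPM (log2 -1.15), and Bcam, the gene of a laminin-binding adhesion protein, had the highest ratio (log2 0.39).

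Of 16 suprabasal and cornified genes, 5 were at least 2-fold lower and 2 higher, beside 5.25% and 7.91% of all genes (median log2 -0.53). Krt13 had 3150 CPM against 6076 CPM (log2 -0.95) and Krt4 446 CPM against 653 CPM (log2 -0.55), both seen in nearly every cell of both clusters. In cluster 13 they reached 24810 and 11679 CPM. Tgm3 (34 UMIs against 722) and Cnfn, the gene of cornifelin (2 UMIs against 36, log2 -2.16), were the furthest below. Of all 21 members of this list 4 had 0 UMIs in cluster 15 (Ivl, Dsg1a, Rptn and Sprr3). Of 15 epithelial transcription factors, 0 were at least 2-fold higher and 2 lower (median log2 -0.10). Trp63, which encodes the p63 factor of basal cells, was close to level at 285 CPM against 305 CPM (log2 -0.10, interval -0.24 to 0.05), and Klf5 and Pitx1 had log2 ratios of -0.50 and 0.17. The exceptions were Grhl3, the gene of a factor of terminal differentiation, with 1 UMI in 1 cell against 109 UMIs in 62 cells (log2 -4.76, interval -10.08 to -2.25), and Ovol1, with 26 UMIs against 246 (log2 -1.24). Grhl3 had 71.4 CPM in cluster 13. The Ovol1 ratio was 0.41 when only the cluster 4 cells without a marker UMI were used. Of 5 stress and simple keratins, 3 were higher and 0 lower, on few cells: Krt8 had 25 UMIs in 6 cells against 13 in 13 cells (log2 2.95) and Krt7 had 17 UMIs in 4 cells against 15 in 14 cells (log2 2.19). The more abundant Krt6a and Krt17 had log2 ratios of -0.72 and 0.21.

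Most other programs lay near level. Ribosome biogenesis genes had 0 of 16 higher and 2 lower (median log2 -0.41), Myc and the RNA polymerase I subunit gene Polr1a (17 UMIs against 148, log2 -1.12), with Npm1 and Ncl at -0.31 and -0.24. Glycolysis had 1 of 16 higher and 2 lower (median log2 -0.02), with Gapdh at 0.13 and Pkm at 0.12. Slc16a3, a lactate exporter gene, had 8 UMIs against 13 (log2 1.31, interval -0.17 to 2.69). Of 18 oxidative phosphorylation genes, 0 passed 2-fold in either direction (median log2 0.06), and the furthest, Ndufa4 and Ndufb8, had log2 ratios of 0.32 each. Growth factor and Wnt genes had 0 of 12 beyond 2-fold (median log2 -0.25). Wnt4 had 634 CPM against 808 CPM and Wnt10a 139 CPM against 170 CPM, and the low genes Axin2 and Tgfa had intervals that spanned 0. The Notch list had 1 of 11 lower, Notch3 on 4 UMIs against 35, and a median log2 of -0.25, with Notch1, the receptor of suprabasal commitment, at 149 CPM against 239 CPM (log2 -0.68), its target Hes1 at -0.25 and Maml2 at -0.70 (15 UMIs against 98).

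Immediate early genes, which respond to tissue handling as well as to growth signals, had 1 of 11 higher, Atf3 at 81.0 CPM against 38.2 CPM (log2 1.09, or 0.90 without the 4 cells with markers of other cell types described next, which is under 2-fold), and a median of 0.16, with Fosb at 0.90, Jun at 0.13 and Jund at -0.07. In the list of the KEAP1-NRF2 pathway, the oxidative stress response that gives the study its subject, 0 of 13 members passed 2-fold (median log2 0.36). Keap1, the gene of the NRF2 adaptor for degradation, had 89.7 CPM against 76.2 CPM (log2 0.24, interval -0.04 to 0.51), and Nfe2l2, the gene of NRF2, had 257 CPM against 232 CPM (log2 0.15). The target genes Nqo1, Gclm and Prdx1 had log2 ratios of 0.84, 0.57 and 0.43, and Hmox1 had 8 UMIs against 21.

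Markers of other cell types came from few cells. Summed fibroblast markers were 1284 CPM against 555 CPM, and red blood cell markers 3287 CPM against 661 CPM, but the medians per cell were 0.0339% against 0.0345% of UMIs for fibroblast markers and 0.0638% against 0.0629% for red blood cell markers. In 4 control cells of cluster 15 the share was far higher. One had 18.4% of its UMIs from red blood cell genes, another had 2.54% and a further cell 1.23% from fibroblast genes, and the last had 0.106% from endothelial and 0.0984% from muscle genes. Endothelial markers summed to 35 UMIs, of which Pecam1 gave 22 in 4 cells and Kdr 5 in 1 cell, and muscle markers to 38 UMIs, of which Tagln gave 25 in 1 cell and Acta2 12 in 7 cells. Markers of T cells (21 UMIs over 8 genes, with Trac and Trdc at 0, Trbc2 at 12 and Cd3g at 4) were near 0. Myeloid and dendritic markers were at 132 CPM against 178 CPM, with H2-Ab1 at 58.1 CPM against 50.6 CPM, Cd74 at 21 CPM against 32.2 CPM, Lyz2 at 33 UMIs against 272, C1qa at 10 against 115 and Itgax at 0. Without the 4 cells and their counterparts in cluster 4, 694 genes were at least 2-fold higher and 668 lower, the median of the mitosis lists was 4.16, and the log2 ratios of Col1a2, Col3a1, Hbb-bs and Hba-a1 went from 1.59, 1.39, 2.46 and 2.06 to -0.40, -0.50, -0.14 and -0.03.

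Most of the genes that varied most over cells were markers of these other cell types. After thinning, the 8 genes with the highest variance-to-mean ratio over the 68 cells were Hbb-bs (1362), Hba-a1 (260.0), Hba-a2 (171), Gm42418 (115), Hbb-bt (102), Col1a2 (53.9), Col3a1 (49.2) and Gsn (45.8). Hemoglobins and collagens belong to the other cell types above, and Gm42418, a transcript that overlaps a ribosomal RNA repeat, had a higher ratio of 206 in cluster 4. Further down, Krt13 had a ratio of 23.2 against 29.0 in cluster 4, and Arl6ip1, which encodes a membrane-shaping protein of the endoplasmic reticulum, had 17.0 against 1.42.

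The cells of cluster 15 spanned a wide range of mitotic content. The percent of a cell's UMIs that came from the 108 mitosis genes ran from 0.880 through a median of 1.86 to 4.83 in cluster 15. In cluster 4 the median was 0.218 and the maximum 2.40, and 6 of 313 cells lay at or above the lowest member of cluster 15. In cluster 13 the median was 0.186 and 0 of 134 cells reached that level. The median percent from the 47 replication genes was low in both basal clusters, at 0.0634 (range 0.0282 to 0.199) in cluster 15 and 0.0434 (range 0 to 0.586) in cluster 4. In cluster 4, 11 of 313 cells lay at or above the second highest replication percent of cluster 15 (0.158). Those cells are part of the summed cluster 4 levels of replication genes given above.

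Cluster 16, in which all 24 control cells also lay at or above the lowest member of cluster 15 in mitosis percent, holds 16 control cells with at least 0.5% of their UMIs from basal keratins. Those 16 keratinocytes had a median mitosis percent of 2.74 and a median replication percent of 0.273, at a median depth of 31474.5 UMIs. As summed levels, their replication genes stood at 2909 CPM, above the 674 CPM of cluster 15, and their mitosis genes at 28306 CPM against 21945 CPM. Pcna had 191 CPM in them against 13.6 CPM in cluster 15, and Mcm6 46.0 CPM against 6.80 CPM. Basal genes were at 16647 CPM against 17167 CPM. Across the 75 cells of cluster 15 the mitosis and replication percents had a Spearman correlation of 0.44 and a Pearson correlation of 0.38; both share the depth of the cell, and the correlation of the mitosis percent with depth was 0.15 by Spearman and 0.38 by Pearson.

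**Figure D4:**
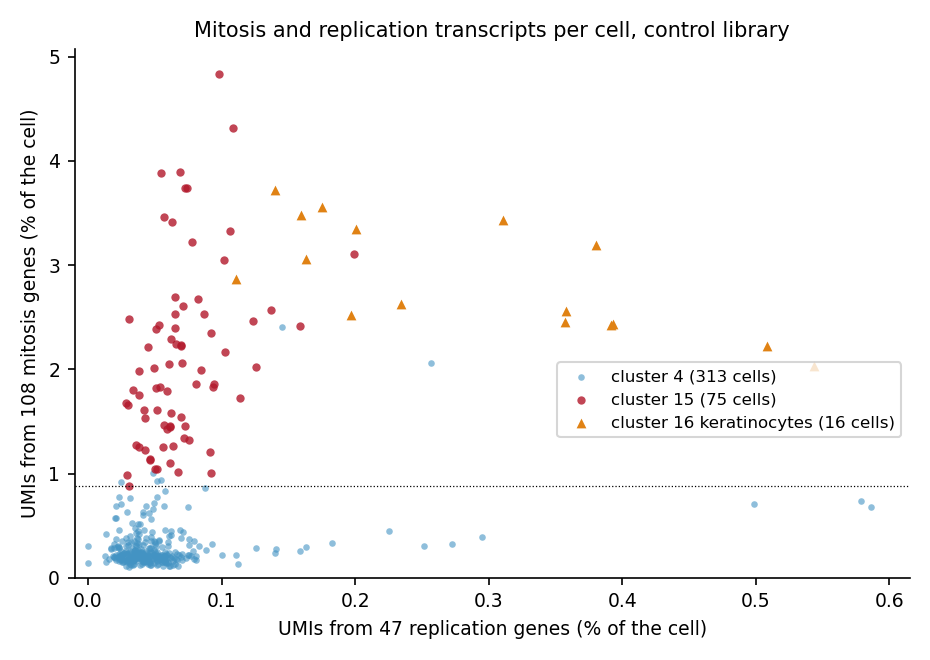
Percent of each control cell's UMIs from 47 replication genes (horizontal axis) and 108 mitosis genes (vertical axis) for cluster 15, cluster 4 and the keratinocytes of cluster 16; each point is a cell and the dotted line marks the lowest member of cluster 15, 0.880%. Cluster 15 cells are spread upward at low replication content, with a median of 0.0634%, while the cluster 16 keratinocytes lie to the right with a median of 0.273%.

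The 75 cells were ordered by mitosis percent into 3 parts of 25 to see which genes differed along that range. Neighbouring cells at the boundaries had 1.58 and 1.61 percent, and 2.29 and 2.35 percent, so the parts are ranges and not types: 12 and 15 cells lay within 10% of a boundary. Median depth was 21255, 18633 and 21867 UMIs from the lowest to the highest part, but the upper quartile was 23080, 21441 and 33204 UMIs. The deepest cells of the highest part were also those with its highest mitosis percents. Its summed levels therefore weigh these cells most, and whether the differences given next hold in its shallower cells was not tested. Of the 4 cells with other markers, 3 were in the lowest part and 1 in the middle part; without them the Top2a difference given next was 3.69. The summed share of the mitosis genes had to increase along this order, which does not fix the course of each gene. Top2a, Ube2c, Prc1, Plk1 and Aurka are among those genes, so a higher level in the highest part is in part built into the order. Kpna2 was not used for the order. Top2a had 72.1, 103 and 959 CPM in the lowest, middle and highest part, a log2 difference of 3.73 between highest and lowest. Ube2c had 179, 269 and 1371 CPM (log2 2.93), Prc1, the gene of the midzone bundler of the spindle, 98.0, 101 and 814 CPM (log2 3.05), and Kpna2 18.5, 14.7 and 322 CPM (log2 4.12). In these 4 genes the lowest and middle parts were closer to each other than to the highest part. Plk1 (24.0, 86.1 and 205 CPM) and Aurka (18.5, 65.1 and 148 CPM) climbed through all 3 parts.

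Some other mitosis genes differed by less than 2-fold between the lowest and the highest part. Ccnb2 had 396, 500.1 and 410 CPM (log2 0.05, interval -0.22 to 0.32), Cenpa 669, 798 and 859 CPM (log2 0.36) and Cdc20 447, 719 and 839 CPM (log2 0.91), and Mki67 had 493, 641 and 972 CPM (log2 0.98). Ccnb1 differed by more than 2-fold, with 183, 242 and 605 CPM (log2 1.73). The chromatin genes, which the order did not use, differed little in sum, at 10145, 11753 and 12763 CPM, with the abundant Hmgb2 at log2 0.73 and the histone variant gene H2afz at 0.21. The sum hides members that differed more in both directions. Between the highest and lowest part Cbx5 had a log2 difference of 1.94 and Ezh2 of 1.52, and H2afx had 187 against 23 UMIs. The linker histone gene Hist1h1c ran against the order, from 250 CPM in the lowest part to 21.7 CPM in the highest (log2 -3.52, interval -4.47 to -2.70). So did Cdkn1a, from 90.6 CPM to 36.7 CPM (log2 -1.30, interval -2.10 to -0.55), while Cdkn2d went from 16.6 CPM to 142 CPM (log2 3.09).

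Outside the lists, and without the 4 cells with other markers, Arl6ip1 had the largest log2 difference between the highest and lowest part (3.33, interval 2.98 to 3.70), followed by the ubiquitin ligase gene G2e3 (3.01). Hist1h2bc, a core histone gene, had the lowest (-3.15, interval -3.85 to -2.51), followed by AY036118 (-1.27). The replication lists stood at 573, 639 and 794 CPM. The basal keratinocyte list stood at 17599, 15886 and 17792 CPM and the suprabasal list at 5068, 4576 and 4034 CPM. Krt5 (4164, 4152 and 4227 CPM) and Trp63 (261, 250 and 335 CPM) were close to level over the parts.

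**Figure D5:**
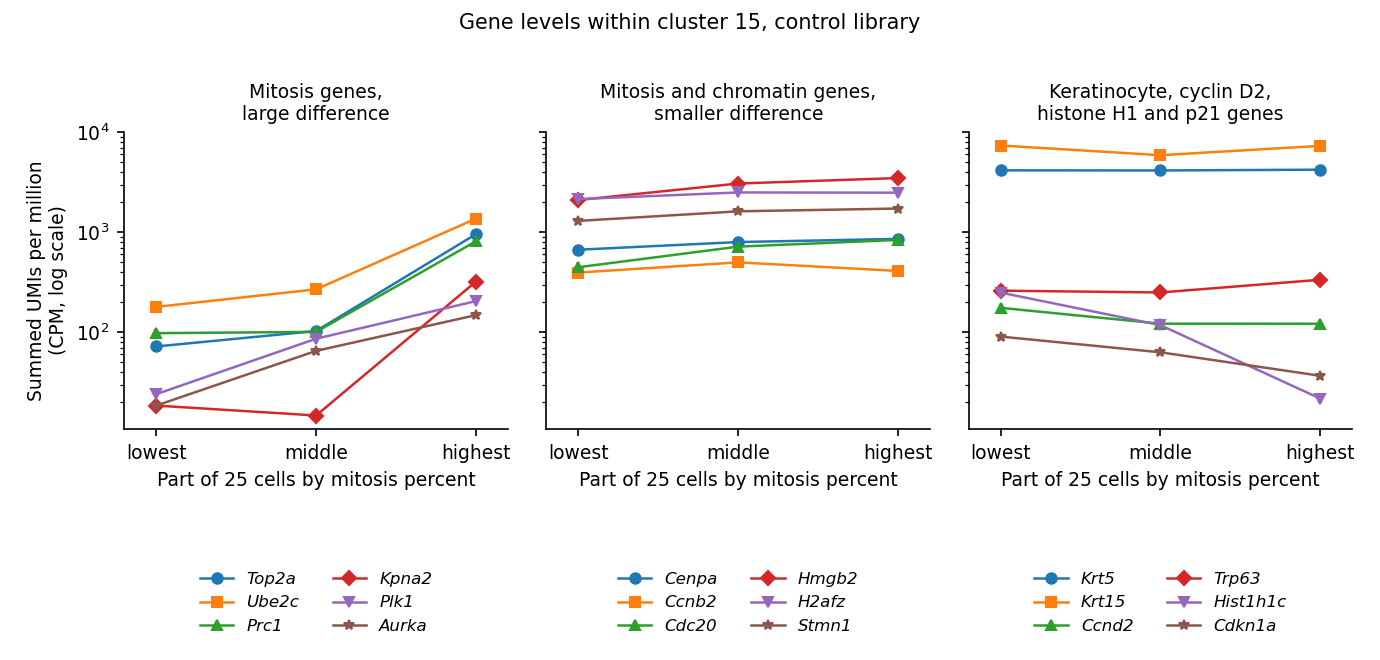
Summed level (vertical axis, CPM on a log scale) of named genes in the 25 control cells of cluster 15 with the lowest, middle and highest mitosis percent; each line is a gene. Top2a, Ube2c, Prc1 and Kpna2 have their highest level in the highest part, Ccnb2 differs little over the parts with 396 to 500.1 CPM, and Hist1h1c goes from 250 to 21.7 CPM. Of these, Top2a, Ube2c, Prc1 and Ccnb2 are among the genes that made the order.

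The 7 Keap1 cKO cells of cluster 15 had between 3887 and 74403 UMIs, with a median of 35859. Their mitosis percent ran from 1.31 through a median of 1.65 to 3.22, inside the control range, and 5 of 7 had all 4 markers and 2 had 3 of them. Summed levels were 577 CPM for Cenpf, 784 CPM for Ube2c, 507 CPM for Top2a and 511 CPM for Mki67. Krt5 stood at 5005 CPM, Krt14 at 8211 CPM, Krt15 at 577 CPM and Krt13 at 353 CPM, and the values of the control cells stand above. Among the targets of NRF2, Gclm was at 1265 CPM and Nqo1 at 231 CPM. These sums come from 7 cells of 1 library, and the deepest of them weigh most. In the Keap1 cKO library 37 of the 93 cells of cluster 4 and all 48 cells of cluster 16 lay at or above the lowest control member of cluster 15 in mitosis percent, so cluster 15 does not hold all cells of that library with a high mitosis content.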

How the data were processed

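Esophagi without muscle were digested with trypsin-EDTA and dispersed, and 3′ libraries were made with 10x Genomics reagents, per the labels' protocols. The submitters' processing notes name the build mm10 and, without parameters, Seurat 4.0.2, R 4.1.1 and Cell Ranger 6.0.1. The counting annotation and cell filters were not given in the sources used here. Expression was deposited as natural log values per gene and cell; in the file, each cell's values add up to one common total once the logarithm is undone. Dividing by the smallest step of each cell gave whole UMI counts, within 0.01 UMI, for 100% of the positive values. A second deposited table gives other information per cell, its library, cell type and cluster, and was used as given.

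Here UMIs were summed over cells (Python 3.11.15, numpy 2.4.6, scipy 1.17.1, pandas 2.3.3). Genes with at least 20 UMIs over both clusters were described, as higher or lower from 2-fold on. Ratios have exact conditional binomial and shares exact Clopper-Pearson 95% intervals. Cells were thinned to 12700 UMIs for shares. The script was tested on simulated counts. The 4 cells with other markers are those with 1% or more of UMIs from blood or fibroblast markers, or 0.05% from endothelial or muscle markers. No cell was removed and no doublet caller was run. Gene locations are from GENCODE vM21, promoters from RefSeq.

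Genes were named by a rule: the 12 highest and 12 lowest ratios of genes that reached 100 UMIs in both clusters together and 50 CPM in either (mitochondrial, hemoglobin and receptor segment genes, Xist and Y-linked genes left out), of each list up to 2 most abundant and 2 most different members, the 8 most variable genes, and the 4 markers, Krt5, Krt14, Krt15, Krt4, Krt13, Trp63, Keap1 and Nfe2l2. Mcm3, Mcm6, Pcna, Hells, Cdk1, Cdkn1a, Cdkn1b, H2afz, H2afx, Cbx5, Ezh2, Hist1h1c, Arl6ip1, G2e3, Hist1h2bc and AY036118 were chosen after their values were seen, as was the 0.5% of basal keratin in cluster 16. The members and lists were chosen with earlier results of these data known.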

Additional observations from a re-analysis of the deposited data

How the results depend on the processing

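No paired analysis was possible because each genotype is 1 library and no test was made. Counts of genes followed the thresholds. Of 7108 genes with at least 100 UMIs, 343 were at least 2-fold higher and 167 lower. Of 13812 genes with at least 3 UMIs, 2445 were higher and 757 lower. At 1.5-fold, 1755 of 10701 genes were higher and 1329 lower. The genes at least 2-fold higher were 60.1% of those beyond 2-fold, 76.4% with at least 3 UMIs and 67.3% with at least 100 UMIs. They were 51.8% after thinning and 51.0% without the 4 cells with other markers, a setting added after seeing the data. Against cluster 4 cells with no marker UMI, the median log2 ratio of the mitosis lists was 5.21. Against clusters 4 and 13 together, the basal median was 0.28 and the suprabasal median -2.82. Asking for 2 UMIs in place of 1 gave shares in cluster 15 of 80.9% for Ube2c and 50% for Top2a, and in cluster 4 of 25% for Cenpf, 15.3% for Ube2c, 2.0% for Top2a and 21% for Mki67. Thinning to 17400 UMIs gave 100% for Cenpf in cluster 15 and 45.5% for Ube2c in cluster 4. The basal list's log2 ratio of highest over lowest part, 0.02, was -0.028 after thinning and -0.10 without the 4 cells. For Ccne1 the value after thinning (0.27) is a bound, because cluster 15 had no Ccne1 UMI left and 3 counts stood for none. Signs changed for the stress keratin median with at least 100 UMIs (-0.26, 2 genes) and Ovol1 against cluster 4 cells with no marker UMI (0.41). They also changed for Col1a2 and Col3a1 without cells at 1% of other markers (-0.43 and -0.45). The same held for Col1a2, Col3a1, Hba-a1, Hbb-bs and Pecam1 without the 4 cells (-0.40, -0.50, -0.028, -0.14 and -1.21). The cause was not tested. With the shorter promoter window of 100 bases before the start, TTTGAA was in 20.9% of mitosis, 5.26% of replication and 5.91% of all promoters. Genes with few UMIs, among them the cyclin E genes, Timeless and Grhl3, have intervals too wide to give the size of their difference, and with 1 library per genotype the spread between mice is unknown.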
